A study of Homo sapiens with 12 samples.

Results

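The genes described here are 32 genes of cholesterol and fatty acid synthesis and their control, taken from a fixed list of names and read in all 12 libraries of the deposited table. All 32 of the listed genes were among its 11548 genes. They form a sterol arm of 18 genes, a fatty acid arm of 9 genes and a group of 5 regulators. RNA of 3 human hepatocellular carcinoma (HCC) cell lines without an engineered change, Hep3B, Huh7 and MHCC97H, was sequenced, each combination of cell line and treatment being represented by a single library. The 4 treatments were untreated cells, 100 nM of AZD8055, which inhibits the mTOR kinase, compound #57, an allosteric inhibitor of the phosphatase SHP2, and the combination of 100 nM of AZD8055 with 5 µM of compound #57. The dose of compound #57 alone was not given in the sources used here. The exposure lasted 24 h in MHCC97H and 48 h in both other lines, and the effects of line and exposure time therefore cannot be told apart.

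Cells make cholesterol from acetyl-CoA through mevalonate, the isoprenoids, squalene and lanosterol, and make long fatty acids from the same acetyl-CoA through malonyl-CoA and palmitate. Transcription of both routes is driven by the SREBP proteins, which are held in the endoplasmic reticulum by SCAP and the INSIG proteins while sterols are plentiful and are cut and released when sterols run low. The product of SREBF2 acts mainly on sterol genes and that of SREBF1 mainly on fatty acid genes, and mTORC1 is known to promote the activity of both. In the liver these routes supply the cholesterol and the triglycerides of lipoproteins.

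The promoters of the members are shown because SREBP proteins are known to act together with the CCAAT-binding factor NF-Y. RefSeq windows from 250 bases before to 50 bases after a start site (GRCh38.p14) were matched by symbol for 28 of the 32 genes. FDFT1, SQLE, ACAT2 and FASN had none. The motif CCAAT, searched on both strands, was found in 13 of 15 genes of the sterol arm with a window (86.7%), in 6 of 8 genes of the fatty acid arm (75%) and in 2 of 5 regulators. It was found in 43.8% of the 8714 genes of the deposited table with a window. Genes with several start sites have more windows to hold it. Among genes with a single window, it was found in 9 of 11 of the sterol arm and in 38.4% of 6133 genes of the table. The sterol arm genes without it were PMVK and CYP51A1. GGGCGG was found in 26 of the 28 members (92.9%) and in 78.4% of the genes of the table, and CACGTG in 5 members (17.9%) and in 13.0% of the genes. A stricter sterol element, TCACNCCAC on either strand, was found in SREBF2 alone of the 28 members and in 1.53% of the genes. Among the members, matches of different motifs shared no letters, while neighbouring matches of CCAAT (IDI1 and NSDHL) and of GGGCGG (INSIG1, SREBF2 and ACACA) overlapped in part. A match is a description of these letters and not a binding site.

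Below are the bases before the start site of 7 members, ended at the first exon of a protein-coding gene, 5′ to 3′ on the strand of the gene. They were chosen as a regulator with both motifs (SREBF2), the member whose response to the combination differed most between cell lines (INSIG1), 2 sterol genes with several CCAAT motifs (MSMO1 and EBP), the sterol gene with the smallest differences from untreated cells (PMVK), and 2 fatty acid genes (ACSS2 and SCD). Capitals mark CCAAT, its reverse ATTGG and the TCACNCCAC match. The SREBF2 stretch overlaps an exon of the noncoding SREBF2-AS1. ACSS2 has another stretch, chr20:34876362-34876571, which holds no CCAAT and is not printed.
SREBF2, chr22:41832855-41833104, plus strand: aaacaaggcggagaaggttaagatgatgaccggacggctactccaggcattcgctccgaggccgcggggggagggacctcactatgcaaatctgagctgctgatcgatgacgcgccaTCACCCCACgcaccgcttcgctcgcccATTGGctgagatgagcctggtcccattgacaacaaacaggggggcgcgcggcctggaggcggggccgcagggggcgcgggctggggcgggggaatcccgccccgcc
INSIG1, chr7:155297628-155297775, plus strand: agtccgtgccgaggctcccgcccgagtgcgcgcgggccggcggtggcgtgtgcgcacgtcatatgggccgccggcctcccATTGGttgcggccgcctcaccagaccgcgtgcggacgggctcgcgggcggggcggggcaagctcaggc
MSMO1, chr4:165327419-165327666, plus strand: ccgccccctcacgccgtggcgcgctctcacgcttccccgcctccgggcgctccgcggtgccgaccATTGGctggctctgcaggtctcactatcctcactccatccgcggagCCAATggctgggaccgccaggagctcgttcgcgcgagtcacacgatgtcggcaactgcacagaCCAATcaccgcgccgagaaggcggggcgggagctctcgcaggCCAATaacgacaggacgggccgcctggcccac
EBP, chrX:48521558-48521798, plus strand: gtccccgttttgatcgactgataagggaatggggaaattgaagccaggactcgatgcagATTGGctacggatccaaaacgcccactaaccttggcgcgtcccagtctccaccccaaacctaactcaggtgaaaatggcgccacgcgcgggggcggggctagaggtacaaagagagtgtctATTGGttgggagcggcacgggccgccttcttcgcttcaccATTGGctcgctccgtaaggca
PMVK, chr1:154936720-154936969, minus strand: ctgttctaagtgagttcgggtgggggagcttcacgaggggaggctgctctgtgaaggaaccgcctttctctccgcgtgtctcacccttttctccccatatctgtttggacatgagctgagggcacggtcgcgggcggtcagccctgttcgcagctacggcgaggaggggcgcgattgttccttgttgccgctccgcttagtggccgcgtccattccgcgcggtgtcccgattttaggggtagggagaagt
ACSS2, chr20:34874739-34874941, plus strand: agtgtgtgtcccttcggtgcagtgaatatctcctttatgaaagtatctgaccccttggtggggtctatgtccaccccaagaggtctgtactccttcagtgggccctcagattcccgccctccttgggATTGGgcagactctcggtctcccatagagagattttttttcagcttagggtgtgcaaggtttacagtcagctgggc
SCD, chr10:100346983-100347232, plus strand: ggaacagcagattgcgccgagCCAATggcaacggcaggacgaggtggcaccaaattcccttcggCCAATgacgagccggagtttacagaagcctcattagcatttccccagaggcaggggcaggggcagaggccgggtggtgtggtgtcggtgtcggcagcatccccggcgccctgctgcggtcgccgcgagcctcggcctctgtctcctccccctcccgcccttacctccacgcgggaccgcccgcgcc

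In untreated cells, the most abundant member per length was SCD, the desaturase that puts the first double bond into saturated fatty acids, with 653 RPKM (reads scaled to exon length and library size) in Hep3B, 921 in Huh7 and 114 in MHCC97H. FASN, the synthase of palmitate, followed in Hep3B with 266 RPKM, HMGCS1, the synthase that opens the mevalonate route, in Huh7 with 298, and ACLY, which makes acetyl-CoA from citrate, in MHCC97H with 87.1. CYP51A1, the demethylase of lanosterol, was lowest in Hep3B with 1.75 RPKM and in Huh7 with 2.09, and HSD17B7, a sterol reductase, in MHCC97H with 0.786. CYP51A1 overlaps other annotated genes on both strands and has annotated pseudogene copies, as have FDPS, IDI1, HSD17B7 and SCD, so that part of their reads could be assigned elsewhere and their levels are uncertain. FADS1 and FADS2 overlap each other on opposite strands, as do ACAT2 and TCP1, and the use of strand in counting was not given in the sources used here.

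Most members stood at a lower level in MHCC97H than in the other cell lines. Over the 4 treatments, limma called 21 of 32 members lower in MHCC97H than in Hep3B and 1 higher, where 38.6% of all genes were lower and 29.2% higher. Against Huh7, 22 were lower and 4 higher, beside 36.4% and 33.8% of all genes. Between Hep3B and Huh7, 6 members were higher in Hep3B (30.7% of all genes) and 10 lower (24.5%). In these tests the 4 libraries of a line, each under another treatment, stand as its replicates. Their p-values measure how a gap between lines varies over the treatments, and not the spread between cultures of a line. HMGCS1 had the largest difference, with a level in MHCC97H lower by a log2 difference of -3.57 (SE 0.28, adjusted p = 2.11e-06) than in Hep3B and of -4.55 (SE 0.28, adjusted p = 3.05e-07) than in Huh7. FADS2, which desaturates polyunsaturated fatty acids, was higher in Huh7 than in either of the others, with log2 differences of -3.45 (Hep3B minus Huh7, SE 0.32, adjusted p = 1.82e-05) and -4.31 (MHCC97H minus Huh7, SE 0.32, adjusted p = 1.11e-06). PMVK, the second kinase of the mevalonate route, was higher in MHCC97H than in Hep3B (log2 difference 0.37, SE 0.10, adjusted p = 0.00876) and Huh7 (0.69, SE 0.10, adjusted p = 0.00015). The defining genes of hepatocytes were also low in MHCC97H. The 10 listed hepatocyte markers summed to between 1623 and 4096 reads per 10000000 of the library in its libraries, against 203795 to 594586 in Hep3B and 102680 to 208660 in Huh7, and TTR had no read in 2 of the 4 MHCC97H libraries. The part of this and of the exposure time in the levels of the members was not tested.

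Levels below are reads scaled to 10000000 per library, here called scaled reads, and differences are taken on the log2(scaled reads + 1) scale between 2 libraries of a cell line. They are shares of the reads of a whole culture, so that fewer expressing cells and less RNA per cell cannot be told apart. Intervals are 95% Clopper-Pearson intervals of the ratio of reads and cover counting error only, since no condition has a replicate within a cell line. The median of the differences of all genes from untreated cells was at most 0.089, and the median level of a library moved by up to 0.109, in MHCC97H with compound #57.

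With AZD8055 alone most members had lower values than in untreated cells, but none passed the test. The median log2 difference from untreated cells was -0.23 in Hep3B, -0.69 in Huh7 and -0.47 in MHCC97H for the sterol arm, and -0.47, -0.82 and -0.53 for the fatty acid arm, beside 0.017, -0.016 and 0.055 for all genes. Of the sterol arm, 16 of 18 genes were lower in all 3 cell lines, and of the fatty acid arm 6 of 9, where 25.7% of all genes were lower in all 3. At least 2-fold lower were 0 members in Hep3B (0.823% of all genes), 5 in Huh7 (2.52%) and 4 in MHCC97H (3.07%). Across the cell lines, limma called 0 of 32 members on the log2 values, with 2.96% of all genes called, and 0 by voom on the reads, with 3.76% called. At an unadjusted p under 0.05, 7 members were lower (12.2% of all genes) and 1 was higher (15.2%), a share of members no larger than that of all genes, 27.4%. The lowest adjusted p of a member was that of ELOVL6, which elongates palmitate, with a log2 difference of -0.82 (SE 0.23, adjusted p = 0.0667). ACAT2, the thiolase that joins acetyl-CoA units, was lower by -0.67 in Hep3B, -1.03 in Huh7 and -1.59 in MHCC97H. STARD4, a carrier of cholesterol between membranes, was lower by -0.21, -1.18 and -1.58 in the same order, and EBP, a sterol isomerase, by -0.48, -1.10 and -0.90. PMVK (0.33, 0.20 and 0.19) and the regulator genes SREBF2 (0.39, 0.31 and 0.41) and SCAP (0.32, 0.27 and 0.14) were higher in all 3 cell lines.

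With compound #57 alone most members had higher values than in untreated cells. The median log2 difference of the sterol arm was 0.70 in Hep3B, 0.55 in Huh7 and 1.13 in MHCC97H, and that of the fatty acid arm 0.076, 0.33 and 0.48, beside 0.011, 0.032 and 0.082 for all genes. In Hep3B 17 of 18 sterol genes were higher, with FDFT1, the squalene synthase, at -0.0044, and in Huh7 and MHCC97H all 18. Higher in all 3 cell lines were 27 of 32 members, where 30.6% of all genes were. The number of members at least 2-fold higher was 2 in Hep3B (8.96% of all genes), 2 in Huh7 (4.43%) and 15 in MHCC97H (3.12%), 12 of the last in the sterol arm. Across the cell lines limma called 0 members, with 1 gene called in all (0.00866%), and voom called 0 members too. At an unadjusted p under 0.05, 17 members were higher (13.6% of all genes) and 0 lower (8.1%). Without MHCC97H, 7 members were called higher (4.04% of all genes), namely CYP51A1, ACSS2, MVD, SC5D, IDI1, MSMO1 and LSS. Without Hep3B 0 members were called, with 0.00866% of all genes, and without Huh7 0, with 0.0% of all genes.

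ACSS2 of the fatty acid arm had similar differences with compound #57 in the 3 cell lines. ACSS2, on chr20:34872146-34927962 of hg38, makes acetyl-CoA from acetate. It had 518 scaled reads in untreated Hep3B cells, 365 with AZD8055, 1574 with compound #57 and 362 in the combination. In Huh7 the values were 1202, 506, 3742 and 1056, and in MHCC97H 214, 279.9, 720.4 and 832. Compound #57 alone thus gave the highest ACSS2 level in Hep3B and Huh7, and the combination did in MHCC97H. The log2 difference of compound #57 from untreated cells was 1.60 in Hep3B (interval 1.47 to 1.74), 1.64 in Huh7 (1.56 to 1.71) and 1.75 in MHCC97H (1.55 to 1.95), with an average of 1.66 in limma (SE 0.43, adjusted p = 0.105). The enzymes that lead from citrate to palmitate had smaller differences. ACLY differed by 0.028, 0.053 and 0.20, ACACA, the carboxylase that makes malonyl-CoA, by -0.14, 0.11 and 0.48, and FASN by -0.095, 0.043 and 0.37.

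**Figure D1:**
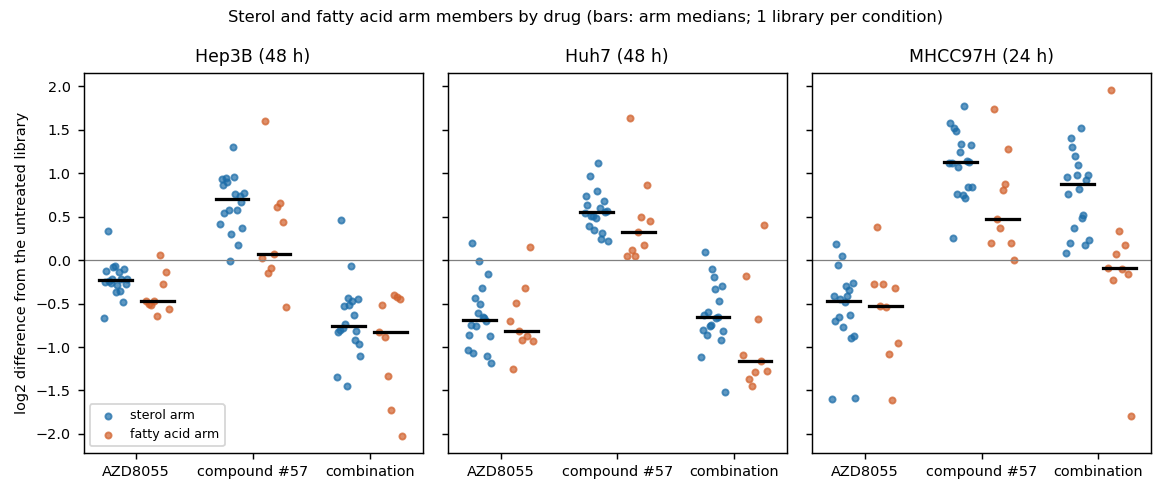
Log2 difference of each of the 18 sterol arm genes (blue) and 9 fatty acid arm genes (orange) from the untreated library of the same cell line, by drug. Black bars are arm medians. The sterol medians with the combination lie at -0.76 in Hep3B, -0.66 in Huh7 and 0.87 in MHCC97H.

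The combination split the cell lines. Against untreated cells, the median of the sterol arm was -0.76 in Hep3B, -0.66 in Huh7 and 0.87 in MHCC97H, and 17 of its 18 genes were lower in Hep3B and Huh7 and higher in MHCC97H. PMVK was higher in all 3. Among all genes, 9.88% had this pattern of signs. The fatty acid arm had medians of -0.83, -1.16 and -0.092, and 4 of its 9 genes, ACSS2, FASN, SCD and FADS2, had the pattern of the sterol arm. Another 4, ACLY, ACACA, FADS1 and ELOVL6, were lower in all 3 cell lines. At least 2-fold lower were 7 members in Hep3B (6.0% of all genes), 10 in Huh7 (6.46%) and 1 in MHCC97H (4.72%). At least 2-fold higher were 0 members in Hep3B (11.6%), 0 in Huh7 (12%) and 8 in MHCC97H (11.4%).

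Over the 3 cell lines, limma called 5 members lower in the combination than in untreated cells (15.1% of all genes) and 2 higher (20.9%). No gene of the sterol arm was among them. ELOVL6 was lower by -1.70 (SE 0.23, adjusted p = 0.0023), FASN by -0.90 (SE 0.26, adjusted p = 0.0252), ACACA by -0.83 (SE 0.21, adjusted p = 0.0152), ACLY by -0.67 (SE 0.18, adjusted p = 0.017) and SREBF1 by -0.78 (SE 0.21, adjusted p = 0.0184). SREBF2 was higher by 0.73 (SE 0.14, adjusted p = 0.0053) and SCAP by 0.34 (SE 0.11, adjusted p = 0.0391). Centring each library on its median ended the call of SCAP (log2 difference 0.27, adjusted p = 0.093), added SCD as lower, and gave 1 member higher and 6 lower. The count rested on which cell lines were in the fit, with 2 members called without Hep3B (SREBF2 and ELOVL6, beside 15.6% of all genes), 0 without Huh7 (0.0953%) and 23 without MHCC97H (32.7%). Of the last, 21 were lower, beside 14.8% of all genes.

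ELOVL6, on chr4:110045846-110199199, was lower in the combination in every cell line. It had 1286 scaled reads in untreated Hep3B cells, 867 with AZD8055, 887 with compound #57 and 317 in the combination. In Huh7 it had 1141, 597, 1555 and 470.4 reads, and in MHCC97H 448, 231, 449 and 129. The combination was the lowest library in each cell line, with log2 differences from untreated cells of -2.02 (interval -2.19 to -1.86), -1.28 (-1.42 to -1.14) and -1.79 (-2.06 to -1.54). Its response in MHCC97H differed from the mean of Hep3B and Huh7 by -0.14 (SE 0.53, adjusted p = 0.93, limma), a difference that this SE leaves wide. SCD, by contrast, had 34273, 21898, 36127 and 10346 scaled reads in Hep3B, 48301, 25539, 60551 and 19713 in Huh7, and 5996, 4141, 10511 and 7591 in MHCC97H, in the order untreated, AZD8055, compound #57 and combination. Its combination library was the lowest in Hep3B and Huh7 and the second highest in MHCC97H. FASN had 24777, 17843, 23193 and 9814 reads in Hep3B, 10967, 6231, 11299 and 4022 in Huh7, and 7184, 5933, 9310.4 and 7558 in MHCC97H.

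Compared with AZD8055 alone, the combination had a median of the sterol arm above 0 in MHCC97H but not in Hep3B or Huh7. The median of the sterol arm in the combination against AZD8055 was -0.44 in Hep3B, -0.010 in Huh7 and 1.42 in MHCC97H, and that of the fatty acid arm -0.37, -0.36 and 0.35, beside 0.025, 0.036 and 0.041 for all genes. All 18 sterol genes were higher in MHCC97H, from 0.011 for PMVK to 1.95 for IDI1, the isomerase of isopentenyl diphosphate. In Hep3B 16 of 18 were lower and in Huh7 10 of 18. The members at least 2-fold higher were 18 of 32 in MHCC97H (2.81% of all genes), 0 in Hep3B (5.73%) and 1, ACSS2, in Huh7 (4.0%). At least 2-fold lower were 3 in Hep3B (3.33%), 0 in Huh7 (1.84%) and 0 in MHCC97H (1.13%). Since AZD8055 and the combination are compared at the same exposure within each cell line, this comparison does not cross the time points, but the cell lines still differ in time. Averaged over the 3 cell lines, limma called 0 members and 0 genes (0.0%), with 1673 genes (14.5%) and 3 members at an unadjusted p under 0.05, and voom called 0.

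Of the 32 members, the regulator INSIG1 had the largest gap in this response between MHCC97H and the other cell lines. INSIG1, on chr7:155297776-155310235, encodes an anchor of SCAP in the endoplasmic reticulum and is itself a target of SREBP. In MHCC97H it had 356 scaled reads in untreated cells, 246 with AZD8055, 1388 with compound #57 and 1313 in the combination. In Hep3B it had 827, 663, 1152 and 372, and in Huh7 2335, 1312, 2798 and 826.5. The combination library was the lowest in Hep3B and Huh7, while in MHCC97H it was close to compound #57 alone. The log2 difference between combination and AZD8055 was -0.83 in Hep3B (interval -1.0 to -0.67), -0.67 in Huh7 (-0.78 to -0.55) and 2.41 in MHCC97H (2.25 to 2.59). The response of MHCC97H exceeded the mean response of Hep3B and Huh7 by 3.16 (SE 0.27, adjusted p = 0.0479), and INSIG1 was the only gene of the table called in this test (0.00866% of all genes). With voom on the reads it was not called (adjusted p = 0.0914). This fit has 3 residual degrees of freedom, which come from Hep3B against Huh7 alone, and the single MHCC97H library of each treatment is assumed to vary like them.

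Against untreated cells, the same test called 3 members, where 0.727% of all genes were called higher. They were INSIG1 (3.20, SE 0.27, adjusted p = 0.0146), MSMO1 (2.09, SE 0.26, adjusted p = 0.0386) and IDI1 (1.86, SE 0.24, adjusted p = 0.0403). MSMO1, a methyl oxidase of the steps after lanosterol, had 652, 488, 2236 and 1873 scaled reads in MHCC97H in the order untreated, AZD8055, compound #57 and combination. In Hep3B it had 1480.2, 1344, 2511 and 1069, and in Huh7 4596, 2922, 6977 and 2893. The MSMO1 values of the combination were thus about those of AZD8055 in Huh7 and below them in Hep3B. IDI1 had 514, 326, 1443 and 1265 reads in MHCC97H, 2072, 1720, 3861 and 1441 in Hep3B, and 2824, 2088, 4025 and 1869 in Huh7. At an unadjusted p under 0.05, the signed difference was more positive in MHCC97H than in the other cell lines for 25 of 32 members and more negative for 0 in the combination against untreated cells (9.51% and 6.53% of all genes), and likewise for 25 and 0 members against AZD8055 (4.43% and 2.72%). A more positive difference is not always a larger one, as ACAT2, at 0.081 against untreated cells in MHCC97H, differed less there than in Hep3B and Huh7. These p-values are in part from the same libraries. For the drugs alone the limma test called 0 members, beside 0.0173% of all genes for AZD8055 and 0.0% for compound #57. By voom 0 members were called too, beside 0.00866% and 0.0%. More positive in MHCC97H for AZD8055 was 1 member (6.1% of all genes), and 5 were more negative (4.9%), at an unadjusted p under 0.05. For compound #57, 8 were more positive (4.33%) and 0 more negative (3.43%) at that level. A fit that assumes additive drug effects called 7 members more positive in MHCC97H in its term for compound #57 (2.75% of all genes). In Hep3B and Huh7, however, the combination lay below the sum of the single drugs for all sterol and fatty acid genes, as given below. These gaps were not tested, and the count of 7 is not read as a response to compound #57. These 7 members were HSD17B7, INSIG1, IDI1, MSMO1, DHCR7, SQLE and FADS2.

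**Figure D2:**
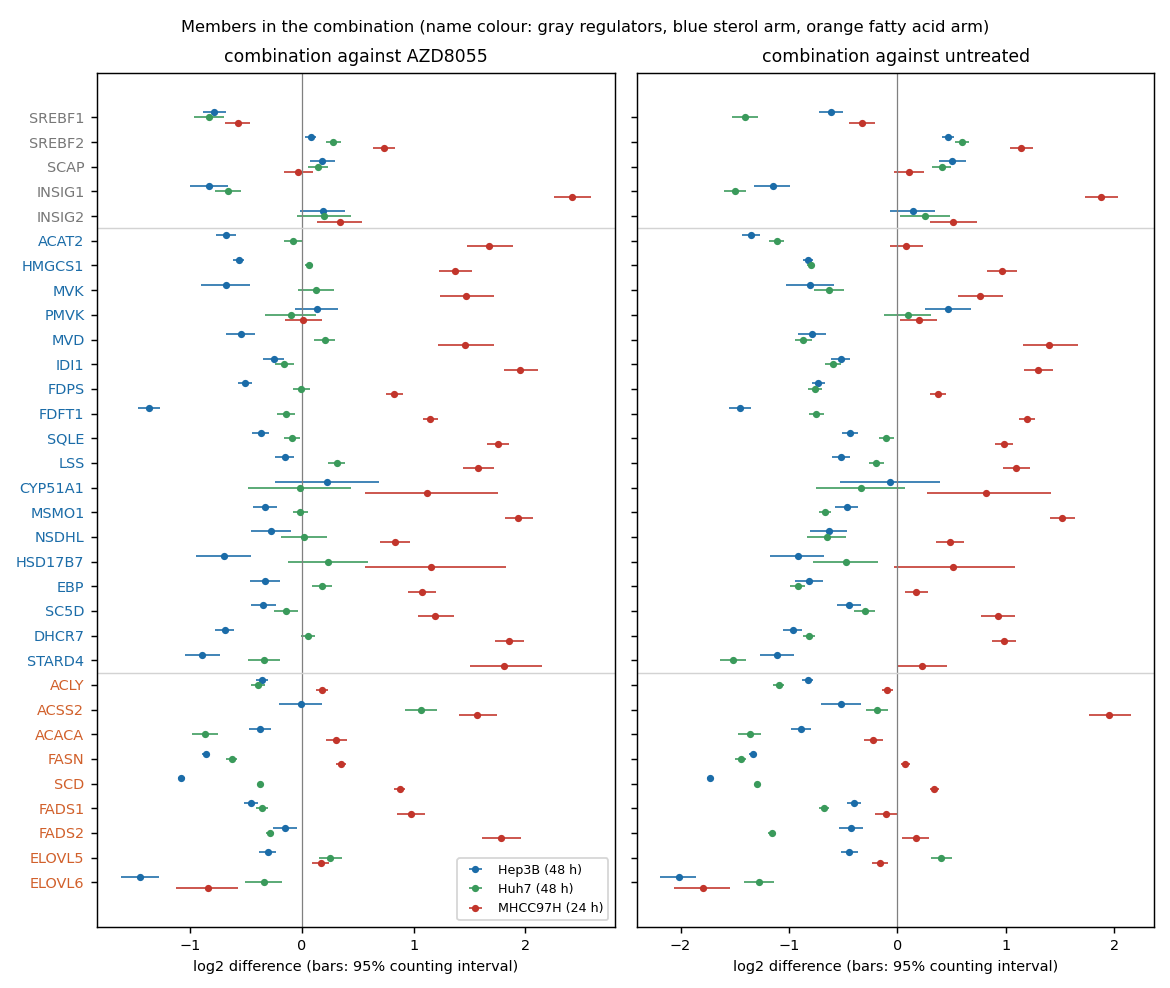
Log2 difference of the combination from AZD8055 (left) and from untreated cells (right) for each member in Hep3B, Huh7 (48 h) and MHCC97H (24 h), with 95% counting intervals as bars. INSIG1 at 2.41 in MHCC97H is the highest point on the left, and ELOVL6 is below 0 in all 3 cell lines on both sides.

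Against compound #57 alone, the combination had lower values for most members in all 3 cell lines. The sterol arm had medians of -1.38, -1.27 and -0.26 in Hep3B, Huh7 and MHCC97H, and the fatty acid arm of -1.08, -1.48 and -0.47. At least 2-fold lower were 23 of 32 members in Hep3B (2.75% of all genes), 22 in Huh7 (3.12%) and 3 in MHCC97H (3.3%). Across the cell lines limma called 7 members, all lower, where 1.57% of all genes were lower. They were ELOVL6 (-1.67, SE 0.23, adjusted p = 0.0137), EBP (-1.27, SE 0.23, adjusted p = 0.0283), ACACA (-0.97, SE 0.21, adjusted p = 0.0391), ACLY (-0.77, SE 0.18, adjusted p = 0.0444), ACAT2 (-1.49, SE 0.35, adjusted p = 0.0452), FDPS, the synthase of farnesyl diphosphate (-0.99, SE 0.23, adjusted p = 0.0454), and FADS1 (-1.06, SE 0.25, adjusted p = 0.0494). Without MHCC97H, 23 members were called lower (1.32% of all genes). Without Hep3B 0 members were called, with 0.00866% of all genes, and without Huh7 0, with 0.0% of all genes. The difference between MHCC97H and the other cell lines was called for 0 members in this comparison, with 20 more positive in MHCC97H at an unadjusted p under 0.05 (4.91% of all genes).

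On the log2 scale, the combination lay below the sum of the single drugs in Hep3B and Huh7. There all 18 sterol genes and all 9 fatty acid genes were below it, where 47.7% of all genes were in Hep3B and 49.8% in Huh7. The median gap was -1.09 in Hep3B and -0.54 in Huh7 for the sterol arm, and -0.80 and -0.67 for the fatty acid arm. In MHCC97H 15 of 18 sterol genes were above the sum, with a median gap of 0.20, and 6 of 9 fatty acid genes were below it, with a median gap of -0.025, beside 57.0% of all genes below. These gaps were not tested.

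The sterol median exceeded the fatty acid median by 0.62 in Hep3B, 0.23 in Huh7 and 0.65 in MHCC97H with compound #57 alone. In the combination against untreated cells the gap was 0.070, 0.50 and 0.96, and with AZD8055 alone 0.25, 0.13 and 0.062. In Hep3B the sterol median was the lower of both in the combination against AZD8055 (-0.068) and against compound #57 (-0.30), while in Huh7 and MHCC97H the gap was 0.35 and 1.07 against AZD8055 and 0.21 and 0.21 against compound #57. In MHCC97H, 18 of 18 sterol genes were above the fatty acid median in the combination against untreated cells, and only ACSS2 of the fatty acid arm was above the sterol median. The gap was not tested. Means in place of medians made it smaller with compound #57 alone, at 0.36, 0.11 and 0.45. They also reversed the order of the arms in Hep3B in the combination against AZD8055, as did leaving out ACAT2, STARD4, ACLY and ACSS2.

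Members of both arms moved largely together over the 12 libraries. With each gene centred within its cell line, the sterol genes other than PMVK (0.30) and FDFT1 (0.851) had a Pearson r between 0.889 (SQLE, the squalene epoxidase) and 0.995 (MVK, the mevalonate kinase) with the mean of the other sterol genes. In the fatty acid arm, FADS1 (0.911), FADS2 (0.914), ACSS2 (0.875) and ELOVL5 (0.726) were more like the sterol mean than like their own arm (0.89, 0.832, 0.634 and 0.702), and ELOVL6 was least like the sterol mean with 0.488. In the sterol arm, ACAT2, EBP, STARD4 and FDPS were likewise more like the fatty acid mean than like their own arm. Their r was 0.963, 0.969, 0.952 and 0.976 with the fatty acid mean, and 0.939, 0.952, 0.937 and 0.973 with their own arm. INSIG1 followed the sterol arm with 0.949, and SREBF2 (0.326), INSIG2 (0.116), SREBF1 (0.187) and SCAP (-0.115) did not. With the fatty acid arm, INSIG1 had 0.852, SREBF1 0.446, SREBF2 -0.025, INSIG2 -0.218 and SCAP -0.341. These are descriptions over 12 libraries that share scaling, treatments and depth.

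The regulators other than INSIG1 did not follow the sterol arm. SREBF2, on chr22:41833105-41907306, had 3829, 5032, 5480.2 and 5302 scaled reads in Hep3B in the order untreated, AZD8055, compound #57 and combination, 2229, 2768, 3038 and 3361 in Huh7, and 792, 1052, 1310.0 and 1748 in MHCC97H. All treated libraries were above the untreated library of their cell line, also in Hep3B and Huh7, where the sterol genes were lower in the combination. SREBF1 had 1510.2, 1703, 1465 and 987 reads in Hep3B, 1616, 1086, 1369 and 609 in Huh7, and 1049, 1249, 866 and 838 in MHCC97H, and its combination library was the lowest in each. SCAP ranged from 793 to 1136 reads in Hep3B, from 1366 to 1816 in Huh7 and from 663 to 730.2 in MHCC97H. INSIG2, a second anchor of SCAP, ranged from 312 to 355 reads in Hep3B, 214 to 255 in Huh7 and 239 to 341 in MHCC97H, with a largest log2 difference from untreated cells of 0.51, in the combination in MHCC97H. PMVK ranged from 279 to 409 reads in Hep3B, 249.9 to 328 in Huh7 and 408 to 485 in MHCC97H.

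Among the genes outside the members whose centred values were most like the sterol arm mean, 7 are given here. ERG28, listed under its older symbol C14orf1 and encoding a scaffold of sterol demethylation, had an r of 0.979, and MMAB, which acts on cobalamin and whose promoter adjoins that of MVK, 0.965. PANK1, a kinase of coenzyme A synthesis, had 0.964, FLVCR1 0.95, RTN3 and HADH, the latter an enzyme of fatty acid oxidation, 0.939, and LUM 0.937. In the combination against AZD8055 in MHCC97H, C14orf1 differed by 1.20, MMAB by 1.03 and PANK1 by 0.87 on the log2 scale.

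The lists of other genes of lipid metabolism held calls in both directions. Of 11 further sterol and isoprenoid genes, limma called 2 higher, TM7SF2 (1.25, SE 0.42, adjusted p = 0.0428) and FAXDC2 (1.44, SE 0.25, adjusted p = 0.00436), and 3 lower, NUS1, PDSS1 and COQ2, in the combination against untreated cells. Of 9 genes of SREBP handling, 2 were called higher, among them the protease gene MBTPS1 (0.41, SE 0.13, adjusted p = 0.0349). Of 12 genes of sterol uptake, efflux and esters, NPC2, which carries cholesterol out of lysosomes, was called higher (1.25, SE 0.20, adjusted p = 0.00336). Of 15 further genes of fatty acid synthesis, 3 were called higher (ELOVL7, FADS3 and MLXIPL) and 4 lower (ACSL3, ME1, TECR and HSD17B12), the last a pair of enzymes of chain elongation, with -0.65 for TECR (SE 0.20, adjusted p = 0.03) and -0.83 for HSD17B12 (SE 0.15, adjusted p = 0.00468).

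Of 12 genes of oxidation and ketone formation, 5 were called higher in the combination against untreated cells and 0 lower. CPT1A, which brings fatty acids into mitochondria, was higher by 2.0 in Hep3B, 4.03 in Huh7 and 0.78 in MHCC97H (limma 2.27, SE 0.51, adjusted p = 0.00979). PPARA (0.79, SE 0.23, adjusted p = 0.0249) and ACAA2 (0.87, SE 0.24, adjusted p = 0.0211) were also among them. Of 10 glycerolipid genes, AGPAT2, AGPAT3 and the triglyceride lipase gene PNPLA2 were called higher and GPAM lower, the latter with -2.13 in Hep3B, -1.84 in Huh7 and 0.21 in MHCC97H. Against the background of 20.9% higher and 15.1% lower among all genes in this comparison, these lists are small and were not tested as lists.

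In the other comparisons few genes of these lists were called. FAXDC2 was higher with AZD8055 than in untreated cells (1.31, SE 0.25, adjusted p = 0.0382) and in the combination than with compound #57 (1.11, SE 0.25, adjusted p = 0.0444). In the latter comparison ME1 (-0.68, SE 0.15, adjusted p = 0.0383), a source of NADPH, HSD17B12 (-0.67, SE 0.15, adjusted p = 0.0426) and SLC25A20 (-0.69, SE 0.16, adjusted p = 0.0494), the carnitine carrier of mitochondria, were lower. Between the combination and AZD8055, 0 genes of these lists were called by limma. The cholesterol exporter gene ABCA1 differed by -0.11 in Hep3B, -0.79 in Huh7 and -1.10 in MHCC97H there. MYLIP, whose product marks lipoprotein receptors for degradation, differed by -0.64, -0.76 and -0.68 in the same order, and PAQR3 by 0.055, -0.19 and -0.30. ELOVL2 differed by 0.55, 0.087 and 0.85, LPIN1 by 0.69, 0.34 and 0.96, and ACADM by 0.22, 0.35 and 0.52.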

How the data were processed

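RNA of 3 HCC cell lines under 4 treatments was sequenced with 1 library each. The deposited values are log2 values: the authors scaled the reads of each gene to 10000000 per library, added 1, took log2 and added 0.001. Per the labels the build was hg38. The aligner and the counting were not given in the sources used here. Undoing these steps returned whole reads for 100.0% of values (tolerance 0.01), and totals of 10667343 to 15968317 reads.

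Differences across cell lines were tested on the log2 values of all 11548 genes with limma 3.58.1 in R 4.3.3, with a term for the cell line, and Benjamini-Hochberg adjustment at 0.05. A second fit set the response of MHCC97H against the mean of the others. Libraries came from cell lines with no replicate culture, so that p-values of treatment comparisons measure the spread between cell lines. Those of level differences between cell lines measure how the gap varies over the 4 treatments. The scripts were tested on simulated data with known log2 differences. For AZD8055 against untreated cells, limma found 90% of genes changed by 1.0 and 88% by -1.0, and called 5 unchanged genes. The simulated spread was the same for every gene and this change the same in every cell line. These shares therefore do not hold for members whose response varied between cell lines. ACAT2, at -1.10 with AZD8055 (SE 0.35), was not called by limma (adjusted p = 0.0875). The test of the MHCC97H difference found 10% at 1.0, 6% at -1.0 and 84% at 2.0, and called 16 unchanged genes. It thus missed most differences of this smaller size. Alternatives were voom on the reads, an added constant of 10, a restriction to the upper 75% of genes by mean, median-centred libraries, fewer libraries, no cell line term, a drug-additive fit, other arms and means. Members and lists were chosen with earlier results of these data known. Named genes were the members, the genes of each further list called in any treatment comparison or among the 2 largest differences of the combination from AZD8055 in MHCC97H, and the 10 genes most like the sterol mean. Some genes under this rule, including 3 of those 10, are not reported here.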

Additional observations from a re-analysis of the deposited data

Results flagged for a closer look

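In the combination the response of MHCC97H differed from the mean response of Hep3B and Huh7 for INSIG1 (log2 difference 3.20 against untreated cells and 3.16 against AZD8055), MSMO1 (2.09 against untreated cells) and IDI1 (1.86 against untreated cells), by limma's test of the difference itself. The residual spread of that test (3 degrees of freedom) comes from Hep3B and Huh7 alone, and the single MHCC97H library of each treatment is assumed to vary like them. With voom on the reads, INSIG1 was not called against AZD8055. The median of the sterol arm lay on opposite sides of 0 in the cell lines, at 0.872 in MHCC97H and -0.758 in Hep3B for the combination against untreated cells, and at 1.417 in MHCC97H and -0.443 in Hep3B for the combination against AZD8055. The difference between these medians was not tested. With 24 h of exposure in MHCC97H and 48 h in the others, line and exposure time cannot be told apart here.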

How the results depend on the processing

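The cell line was the block that pairs the libraries, since same-line libraries come from the same cell line. Without this block, limma called 0 members in the combination against untreated cells and 0 against compound #57, in place of 7 in each. There 0.0% of all genes were called in both comparisons. Leaving out a cell line gave 0 to 7 members for compound #57 against untreated cells (0 with all), 0 to 23 for the combination against untreated cells and 0 to 23 against compound #57. With only the libraries compared, 2 members were called in the combination against untreated cells, beside 16.4% of all genes. For the difference of MHCC97H, the drug-additive fit called 1 member for AZD8055, where 9.53% of all genes were called. It called 7 for compound #57, where 5.17% were, with 0 and 0 members otherwise. The 75% of genes with the highest mean gave 5 for the combination against untreated cells, beside 1.07% of those genes (3 otherwise, beside 0.944%). Voom gave 0 against AZD8055, beside 0.0% of all genes (1 otherwise, beside 0.00866%). The causes of these shifts were not tested. Means in place of medians changed the sterol minus fatty acid gap to 0.046 for AZD8055 in Huh7, and to 0.363, 0.107 and 0.448 for compound #57 in Hep3B, Huh7 and MHCC97H. For the combination in the same order they gave 0.266, 0.266 and 0.759 against untreated cells and 0.097, 0.22 and 0.75 against AZD8055, where Hep3B was at -0.068 by medians, and -0.097 against compound #57 in Hep3B. Without ACAT2, STARD4, ACLY and ACSS2 the gap was 0.209 in Hep3B and 0.636 in Huh7 against untreated cells, 0.097 in Hep3B against AZD8055, and 0.292 in Huh7 and 0.453 in MHCC97H against compound #57. Centring the libraries changed the sign of 9 of 480 member differences, none larger than 0.081, and a constant of 10 changed 0. Among all genes, centring moved the AZD8055 calls from 255 higher and 87 lower to 256 and 217, and the combination calls against untreated cells from 2410 and 1744 to 1993 and 2229. With 1 library per condition, intervals within a cell line cover counting error only.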
